A study of Mus musculus with 2 samples.

Results

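Cd22, Cr2, Ms4a1, Ighm and Igkc encode surface receptors and immunoglobulin chains of B cells, the antibody-forming lymphocytes. These 5 genes were picked by symbol from the authors' deposited table comparing a high-glucose diet with a control diet, in which 1559 genes are named and 1625 probe sets listed. Each was represented by 1 probe set. Cd22, Cr2 and Ms4a1 were listed under these symbols, whereas Ighm and Igkc were listed under the older names Igh-6 and Igk-C. The genes were chosen with their values in that table known, so those values are a description and no test is given on them. RNA came from tissue labelled jejunum, the middle part of the small intestine, of male C57BL/6J mice that were 10 weeks old at the end. One group had eaten HGD (20% glucose) for 4 weeks and the other regular chow (AIN76), after the same 2 weeks of acclimation. There was 1 Affymetrix array per diet, and the labels do not say how many animals an array stands for. Every difference below therefore sets 1 array against another, without replicate error, and a diet effect cannot be told apart from variation between animals or hybridisations.

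The B cell receptor is a membrane immunoglobulin of heavy and light chains joined to the signalling chains Cd79a and Cd79b. Antigen binding starts a cascade through the kinases Lyn, Syk and Btk, the adaptor Blnk and the phospholipase Plcg2. Cr2, by binding complement-tagged antigen, lowers the threshold of that signal, and Cd22, a lectin that binds sialic acid, raises it by recruiting the phosphatase Ptpn6. In the small intestine, mature B cells gather in Peyer's patches and isolated follicles, whereas plasma cells of the lamina propria secrete most of the antibody. These follicles also hold follicular dendritic cells, T cells and specialised vessels. In whole tissue, fewer cells of a type and less RNA per cell cannot be told apart.

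In the authors' deposited table, 4 of the 5 genes were listed far lower on the high-glucose diet and Igkc was listed slightly higher. The table gives a signal log ratio (SLR), the log2 difference of high-glucose against control in steps of 0.1, so that -1 is a value 2-fold lower on the high-glucose diet. The SLR of Cd22 was -5.5 in the authors' deposited table, which is 45.3-fold lower and the second lowest of all listed probe sets. Ighm, the constant region of the mu heavy chain of IgM, had an SLR of -4.0 there, 16-fold lower and the third lowest. Cr2, complement receptor 2, and Ms4a1, the B cell surface protein CD20, both stood at -3.7 in the authors' deposited table, 13.0-fold lower, tied with Gfi1 next after Fcrl1, Cd22, Ighm and Cd37. Igkc, the constant region of the kappa light chain, was listed at 0.5, 1.41-fold higher. The median over the 5 was -3.7, against -0.4 over all listed probe sets. An SLR below 0 was held by 64.0% of all listed probe sets, and one of -1 or lower, the 2-fold mark used here, by 9.85%. Over the named genes the shares were 65.0% and 10.1%, and each count by SLR below is to be read against these shares. Every SLR below is the authors' own value from this table. How the authors selected probe sets for the table is not given in the labels or the files.

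**Figure D1:**
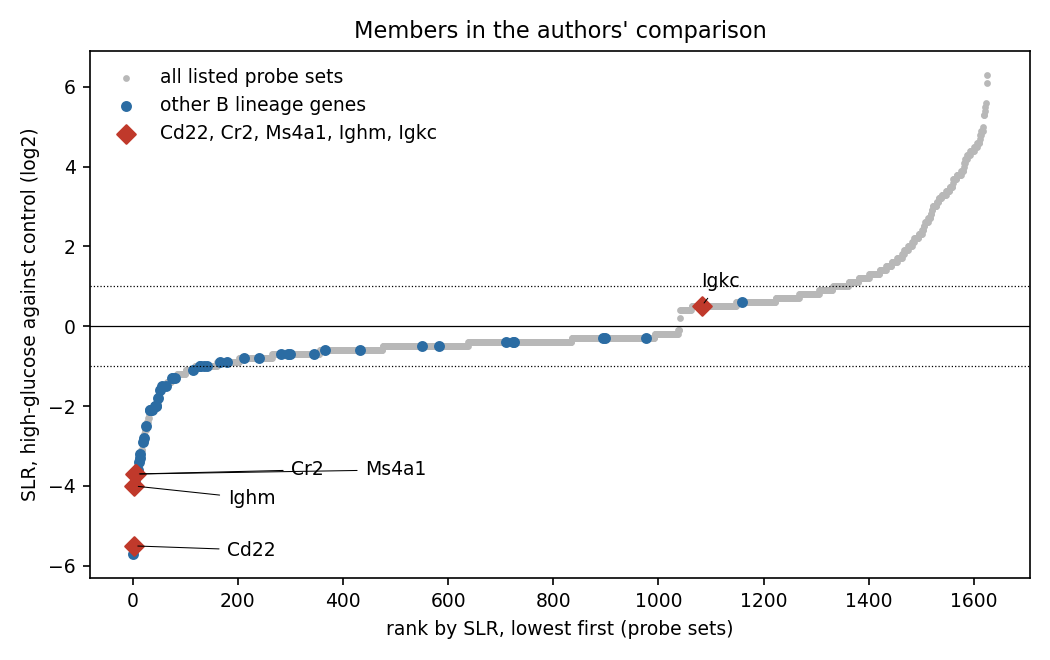
SLR of the 1625 probe sets in the authors' deposited table (log2, high-glucose against control) by rank from the lowest. Red diamonds mark the 5 genes, blue points the other B lineage genes, and dotted lines an SLR of -1 and 1; Cd22, Ighm, Cr2 and Ms4a1 sit at the low end and Igkc at 0.5.

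The deposited signals, under the labels of the same diets, did not show these differences. This was not limited to B cell genes. Of the 1010 listed probe sets at or above the median of both arrays, 583 (57.7%) had an SLR of the same sign as their signal ratio, once the arrays' overall difference in level was taken out. No label or file says that these are the arrays behind the SLR. A signal is the level that Affymetrix's MAS5 algorithm gives a probe set on one array, on a linear scale. The probe set of Cd22 had a signal of 0.3 on the high-glucose array and 0.3 on the control array, and that of Ighm 0.2 on each. Both arrays thus held Cd22 and Ighm near their lowest values, with no difference between the diets at this resolution of 0.1. A lower signal than that of Ighm was held by 0.371% of probe sets on the high-glucose array and 0.340% on the control array. For Cd22 the share was 2.37% on the high-glucose array. Cr2 had a signal of 2.5 on the high-glucose array and 1.0 on the control array, so the deposited order of the diets was opposite to the sign of its SLR. For Ms4a1 the signals were 5.7 on the high-glucose array and 6.4 on the control array, nearly level. Igkc was the bright member, with 295.6 on the high-glucose array and 493.3 on the control array, above 96.3% and 95.6% of the probe sets.

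Whether a signal lay above the array's background was judged against the array itself. The median over all probe sets but controls was 7.9 on the high-glucose array and 13.0 on the control array, and Igkc alone of the 5 reached it on both. Of all probe sets 43.8% did so, and 62.2% of those listed in the authors' deposited table. A lower mark was a floor of 2.9, set midway between the 25th percentiles of both arrays. Cd22, Ighm and Cr2 lay under it on both arrays, as did 15.5% of all probe sets and 6.83% of the listed ones. The array's 3 control probe sets for the bacterial trp transcript had signals of 0.3 to 0.4 on the high-glucose array and 0.2 to 5.6 on the control array. The signals of Cd22 and Ighm on the control array fell within that range, and no ratio is given for them or for Cr2.

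**Figure D2:**
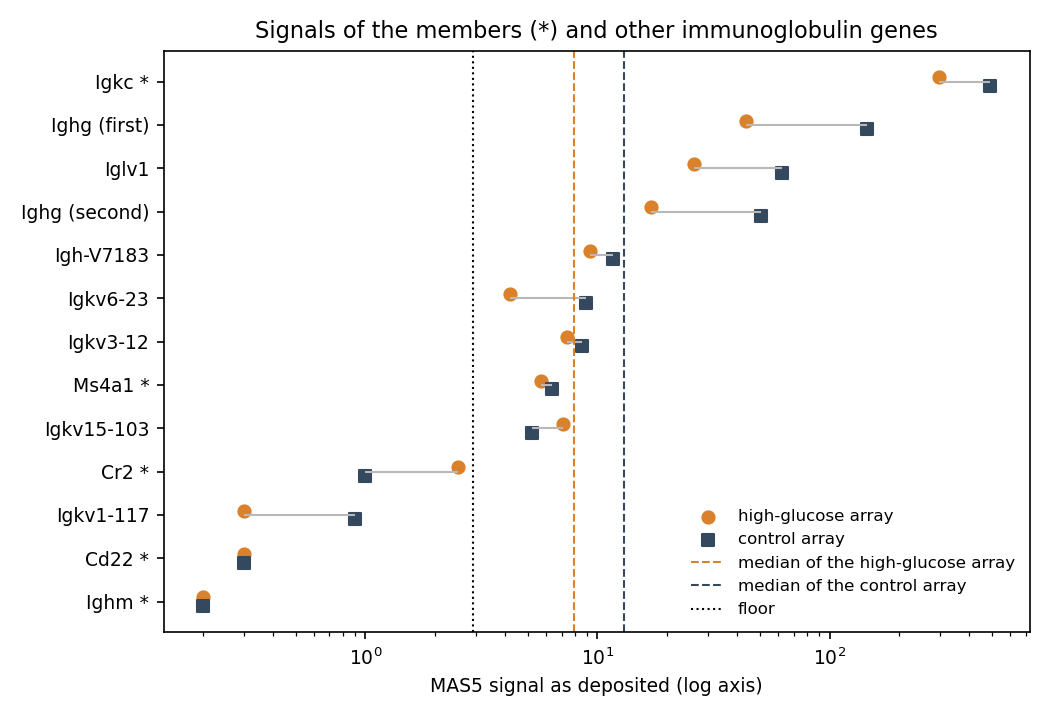
MAS5 signals as deposited (log axis) of the 5 genes, marked with an asterisk, and of the other immunoglobulin probe sets on the high-glucose array (circles) and the control array (squares). Dashed lines are the array medians of 7.9 and 13.0 and the dotted line is the floor of 2.9; Cd22, Ighm and Cr2 lie under the floor on both arrays, and Igkc lies far above both medians.

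The arrays also differed in overall level. Over the 11314 probe sets with a mean log2 signal at or above the median, the median log2 ratio of high-glucose over control was -0.97, a level 1.96-fold lower on the high-glucose array. Ratios are therefore also given relative to that shift. Igkc had a log2 ratio of -0.74 as deposited, 0.23 relative to the shift and -0.02 after centring on the array medians, so its direction depends on the scaling. For Ms4a1 the values were -0.17 as deposited and 0.80 relative to the shift, at signals under the median of both arrays. Neither gene reached a 2-fold difference on any of these scales. Among the 11314 probe sets, 4.83% lay 1 or more log2 units below the shift and 4.95% as far above it.

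The labelled tissue was checked against its markers. Only markers named in the authors' deposited table were counted, 5 of 30 hepatocyte genes and 8 of 26 enterocyte genes. Of the 5 hepatocyte genes, 4 had signals at or above the 90th percentile on both arrays. Of the 8 enterocyte genes 3 did, Apoa1, Apob and Fabp2. Over all named genes, 268 of 1583 probe sets did. The median of both arrays was reached by all 5 hepatocyte genes and by 5 of the 8 enterocyte genes. Over all named genes, 995 of 1583 probe sets reached it. Slc5a1, an enterocyte gene, was under both medians, with 0.8 on the high-glucose array and 4.6 on the control array. The signals thus held liver-typical genes and 3 of the 8 listed enterocyte genes at high levels. The level of the liver-typical genes goes against the label, but it rests on these few listed genes. Their part in the B cell values was not tested.

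Among immunoglobulin genes in the authors' deposited table, heavy chain constant regions were listed far lower and light chain genes nearer to 0. The table holds 10 immunoglobulin probe sets, of which 9 had a negative SLR and 4 one of -1 or lower, with a median of -0.7. Of all listed probe sets, 64.0% and 9.85% did. Besides Ighm, 2 probe sets labelled Ighg, the gamma heavy chains of IgG, had an SLR of -2.8 and -3.4. The 6 light chain probe sets ran from -1.0 to 0.5. Of the 6 variable segments, which supply the antigen-binding part of the chains, the lowest was Igkv3-12 (listed as Igk-V21-12) at -1.0, and the highest was Iglv1 (listed as Igl-V1) at -0.3. Igkv6-23 stood at -0.9, the heavy chain segment Igh-V7183 at -0.5, and the kappa segments listed as Igk-V21 and Igk-V32 at -0.4 in the authors' deposited table. Variable segments resemble each other closely, and the probe sets of Igkc and Igh-V7183 carry the suffix x and those of Iglv1 and of one Ighg the suffix s, which mark probes shared with other transcripts. The values of these families cannot be assigned to single genes with certainty.

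Signals could be read for the brightest of these. The Ighg probe set with an SLR of -2.8 had a signal of 43.5 on the high-glucose array and 145.1 on the control array, a log2 ratio of -0.77 relative to the shift. The other Ighg probe set had 17.0 on the high-glucose array and 50.5 on the control array, or -0.60 relative to the shift. These were the lowest ratios of the 8 immunoglobulin probe sets that had one, and both were smaller in size than the SLRs. They were negative under every scaling tried, from -0.52 to -1.74. Neither passed 2-fold relative to the shift, and the brighter probe set stood at -1.02 with median centring. Iglv1 had signals of 26.0 and 62.1 on the high-glucose and control arrays, -0.28 relative to the shift. The kappa segment listed as Igk-V32 was higher on the high-glucose array as deposited, with 7.1 against 5.2 on the control array, both under the array medians.

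The other genes of the B cell receptor pathway that the authors' deposited table names were all listed lower. Of a list of 17 genes of the receptor, its coreceptors and inhibitory receptors, 10 were named in the authors' deposited table. Leaving out the 5 genes above, the other 5 all had a negative SLR, 3 of them -1 or lower, against 65.0% and 10.1% of all named genes. Cd79b, a signalling chain of the receptor, had a value of -2.1 in the authors' deposited table, and the other chain Cd79a one of -1.6. The inhibitory receptor Cd72 was listed at -0.9 and the leukocyte phosphatase Ptprc (CD45) at -0.8. On the arrays Cd79a had a signal of 8.3 on the high-glucose array and 5.4 on the control array, whereas Cd79b had 1.4 on the high-glucose array and 9.6 on the control array. The 2 chains of the same heterodimer thus had opposite orders of signal on the arrays, at levels around or below the medians. The Cd79b signal on the high-glucose array was under the floor. Relative to the array-wide shift, Cd72 lay at -0.98 and Ptprc at -0.35, with Cd79b also below it and Cd79a above it. Of these, Ptprc alone reached the median of both arrays.

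Of 35 genes that carry the signal onward, 10 were named in the authors' deposited table and all 10 had a negative SLR, with a median of -1.2 and 6 at -1 or lower. The kinase Blk, which is largely B cell restricted among hematopoietic cells, stood lowest at -3.2. Syk, the first kinase to bind the phosphorylated receptor chains, was listed at -1.8, and Prkcb, a protein kinase C on the way to NF-kB, at -1.5. In the authors' deposited table the adaptor Blnk and the phospholipase Plcg2 both stood at -1.3, and the GTPase Rac2 at -1.1. Short of the 2-fold mark were the broadly expressed kinase Akt1 and the phosphatase Ptpn6 at -0.6, Nfkbia, an inhibitor of NF-kB, at -0.5 and the adaptor Grb2 at -0.4. Of the 9 with a signal ratio, 5 lay below the array-wide shift and 4 above it, with a median of -0.11 relative to it. Prkcb had signals of 6.0 on the high-glucose array and 21.9 on the control array, -0.90 relative to the shift, and Rac2 had 7.4 and 21.7, or -0.58. Akt1, Ptpn6 and Grb2 also lay below it, and Syk, Blnk, Plcg2 and Nfkbia above it. Plcg2 had signals of 24.8 on the high-glucose array and 21.7 on the control array, higher on the high-glucose array on either scale. Blnk had 10.1 on the high-glucose array and 5.8 on the control array, the same order.

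**Figure D3:**
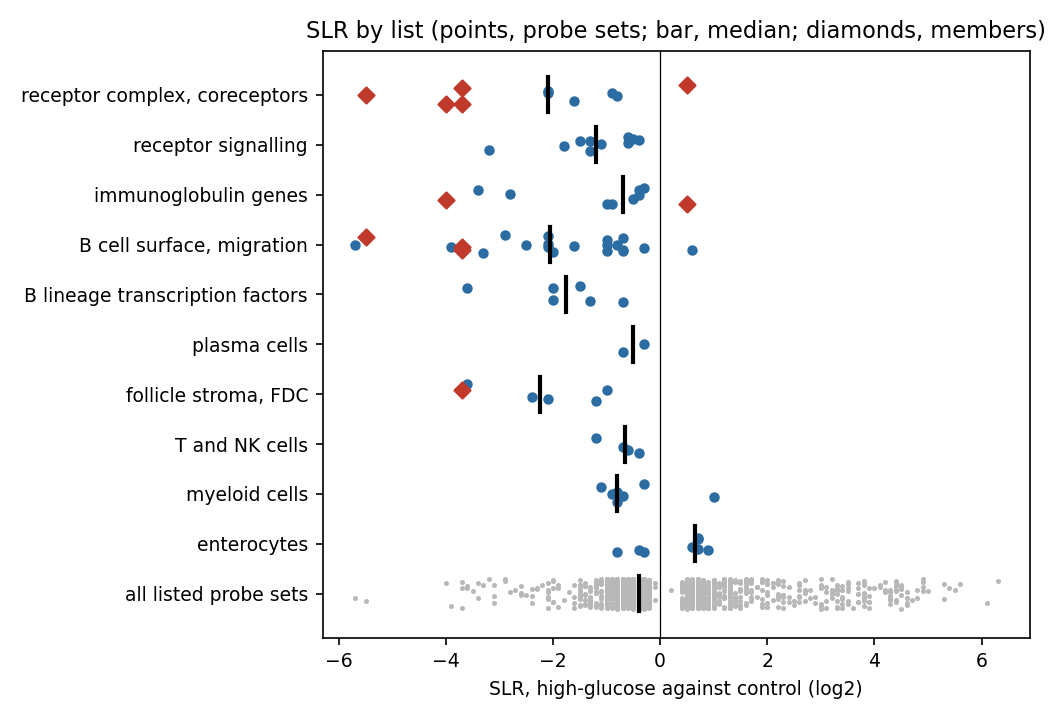
SLR in the authors' deposited table (log2, high-glucose against control) of the probe sets of each list, with all 1625 listed probe sets in the bottom row. Points are probe sets, red diamonds the 5 genes and black bars medians over probe sets; the receptor list has its median at -2.1 and all listed probe sets at -0.4.

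By SLR, surface and migration markers of B cells followed the same direction. Of 37 such genes 22 were named in the authors' deposited table. Without Cd22, Cr2 and Ms4a1 the other 19 had a median SLR of -1.6. Of these, 18 were negative and 13 at -1 or lower, against 65.0% and 10.1% of all named genes. The Fc receptor-like gene Fcrl1 was the lowest of the whole table at -5.7, and the tetraspanin Cd37 stood at -3.9. Tnfrsf13c, the receptor for the survival factor BAFF, was listed at -2.9, Fcrla at -2.5 and Cxcr5, the chemokine receptor that brings B cells into follicles, at -2.1. The costimulatory ligand Cd86, which is also made by dendritic cells and macrophages, had an SLR of -3.3. Ly6d stood at -2.0, the tetraspanin Cd53 and the lymphotoxin subunit Ltb at -1.0, Cd52 at -0.8, and Cd83 and Tnfrsf13b at -0.7 in that table. Cd24a, which epithelial cells also make, was the exception at 0.6. The authors' deposited table gave an SLR of -1.0 to Ciita, -0.7 to H2-Oa and -0.3 to H2-Ab1, genes of antigen presentation. The signals of these 19 genes ran in both directions. Cd79a, Tnfrsf13c, Fcrla, Cxcr5, Ltb and H2-Oa had higher signals on the high-glucose array as deposited, and the others lower ones. Fcrl1 and Cd37 lay under the floor on both arrays. The 17 probe sets with a ratio had a median log2 ratio of 0.73 relative to the array-wide shift. Some of these ratios are bounds, with 1 signal at the floor.

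All 6 transcription factors of the B lineage that the authors' deposited table lists were negative, their median being -1.75, and 5 stood at -1 or lower. Mef2c stood at -3.6, the octamer coactivator Pou2af1 and the ETS factor Spib at -2.0 each, Bcl6, which directs the germinal centre, at -1.5, Bach2 at -1.3 and Irf4 at -0.7. The signal ratios of the 6 had a median of 0.31 relative to the array-wide shift. Bcl6 and Mef2c lay below it, at -1.37 and -1.04, and Pou2af1, Spib, Bach2 and Irf4 above it. Those of Mef2c, Pou2af1 and Irf4 are bounds, and Bach2 alone reached the median of both arrays. Tcf3 (listed as Tcfe2a), whose product E2A binds E boxes and is needed for B cell development, was listed at -3.4. Tcf3 was on no list and was named after its value was seen. Its signals were 0.6 on the high-glucose array, under the floor, and 6.8 on the control array, under that array's median. Plasma cell genes were hardly represented, with Irf4 and the disulfide isomerase Txndc5 (-0.3) as the 2 listed of 15. The 46 B lineage probe sets outside the 5 genes belong to 45 genes, of which 44 had a negative SLR and 26 one of -1 or lower. Of all named genes, 65.0% and 10.1% did. The B lineage lists also hold genes that other cells make, among them Akt1, Ptprc and Cd86.

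Regulatory sequence before the transcription start could be shown for 2 of the 5 genes, Cd22 and Cr2. The 250 bases before the start are given 5′ to 3′ on the coding strand from RefSeq's GRCm38.p6, with E boxes (CANNTG on either strand) in capitals. The Cd22 stretch lies on the minus strand at chr7:30879029-30879278 and that of Cr2 on the minus strand at chr1:195176720-195176969. In Cr2 a pair of E boxes stand side by side as 1 run of capitals.
Cd22: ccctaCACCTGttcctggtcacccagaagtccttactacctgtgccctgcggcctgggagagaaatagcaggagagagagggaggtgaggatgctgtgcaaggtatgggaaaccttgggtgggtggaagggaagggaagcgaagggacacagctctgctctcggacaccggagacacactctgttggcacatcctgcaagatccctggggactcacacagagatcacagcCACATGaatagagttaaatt
Cr2: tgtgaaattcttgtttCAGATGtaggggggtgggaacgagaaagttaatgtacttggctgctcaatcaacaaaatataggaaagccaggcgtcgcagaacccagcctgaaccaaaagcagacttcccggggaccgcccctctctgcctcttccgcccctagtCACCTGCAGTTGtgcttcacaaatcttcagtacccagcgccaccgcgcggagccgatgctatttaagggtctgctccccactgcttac
Cd22 held 2 E boxes and Cr2 held 3. Such a match is common, since 66.0% of 27025 promoters of this length hold at least 1, and 22 of the 28 listed B lineage genes with a promoter did, counting the first promoter that RefSeq's table gives for each gene. The octamer ATGCAAAT, the element of Pou2af1 and its partners, was in neither stretch on either strand. It was found in 1.61% of all promoters and in 2 of those 28, Blnk and Prkcb. The ETS element GAGGAA was also in neither, in 23.1% of all promoters and in 12 of the 28. These matches describe letters in the window only, and a link between them and any factor was not tested.

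The listed genes with the SLR nearest to the median of the 5, -3.7, were Gfi1 at -3.7, Bbox1, Glycam1 and Mef2c at -3.6, Cd37 at -3.9 and Wipi1 at -3.5, by absolute difference in this 1 comparison. Gfi1 is a transcriptional repressor of blood cells, Bbox1 an enzyme of carnitine synthesis, Wipi1 a protein of autophagy and Glycam1 a ligand for lymphocyte homing on high endothelial venules. Of the 31 probe sets with an SLR of -2.3 or lower in the authors' deposited table, 13 belonged to the B lineage lists, or 41.9%, whereas these lists make up 3.14% of the table. Of the 13, 4 were from the 5 genes themselves, which were chosen with these values known. The lists were also drawn up with earlier results of the table known, so this share describes the low end and is no test.

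Genes of neighbouring cells in a follicle were listed lower as well. All 6 listed genes of follicle stroma and follicular dendritic cells stood at -1 or lower in the authors' deposited table, against 10.1% of all named genes. The median SLR of the 6 was -2.25. One of them is Cr2 itself, which follicular dendritic cells also carry. Besides Glycam1 they were Clu at -2.4, the B cell attractant Cxcl13 at -2.1, Mfge8 at -1.2 and Ccl21b, a T zone chemokine, at -1.0. The signals of Glycam1 and Cr2 lay under the floor on both arrays. Relative to the array-wide shift, Cxcl13 lay at 0.45 and Clu at 0.87, but Mfge8 at -0.60 and Ccl21b at -0.70. Clu is made by many tissues, and its signals of 2621 and 2812 on the high-glucose and control arrays were above the 90th percentile. T and NK cell genes had SLRs nearer 0, with a median of -0.65 over the 4 listed of 40 and 1 at -1 or lower, Cd28 at -1.2. Cd3d, a CD3 chain of the T cell receptor complex, stood at -0.4 and the kinase Lck at -0.7. Of 7 listed myeloid genes 6 were negative, against 65.0% of all named genes. Their median was -0.8, the lowest being Coro1a at -1.1, and Cd14 stood at 1.0. None of the listed markers was at 0 on either array, but this does not show presence, as Glycam1 and Cr2 lay under the floor. Summed signals of the follicle list were 2670 on the high-glucose array and 2908 on the control array, nearly all of it Clu, and 49.0 and 95.6 without Clu. In the same order the sums were 367.3 and 657.5 for the receptor list, 30.8 and 27.9 for T and NK cells and 227.9 and 367.7 for myeloid cells. Over all named genes they were 212156.6 and 367485.8. The sums are as deposited, so they include the level that was 1.96-fold lower on the high-glucose array. The T and NK sum rests on 4 probe sets, none of which reached the median of both arrays. Igkc made up most of the receptor list's sum. The difference in SLR between these lists was not tested, nor was the part that the amount of follicle tissue in each sample has in the B cell values.

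Low signals were also held by other extreme values of the authors' deposited table. Leaving out the 5 genes, 14 probe sets had an SLR of -3 or lower, of which 6 lay under the floor on both arrays and 3 reached both medians. Among the 104 probe sets with an SLR of 3 or higher, 28 (26.9%) lay under the floor and 8 (7.69%) reached both medians. Among the 880 with an SLR between -1 and 0, only 25 (2.84%) lay under the floor. SLRs of 3 or more of either sign thus went more often with low deposited signals, and Igkc, the bright member, had a small one. The signals of the other B lineage genes lay on both sides of the array-wide shift. Of 33 such probe sets above the floor on both arrays, 14 lay below the shift. By 1 or more log2 units, 2 lay below it and 8 above it. Among the 11314 probe sets of higher level, 4.83% lay as far below and 4.95% as far above. The shares over all probe sets above the floor were not counted, so the 2 and the 8 are no result about B lineage genes. Of the 16 other B lineage probe sets that reached the median of both arrays, all had a negative SLR and 7 lay below the shift. The median of the 16 was 0.11 relative to the shift, against 0.01 for all listed probe sets of that level. Among the 16 were Akt1, Ptprc and Cd86, which other cells also make, so these values are not of B cells alone.

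**Figure D4:**
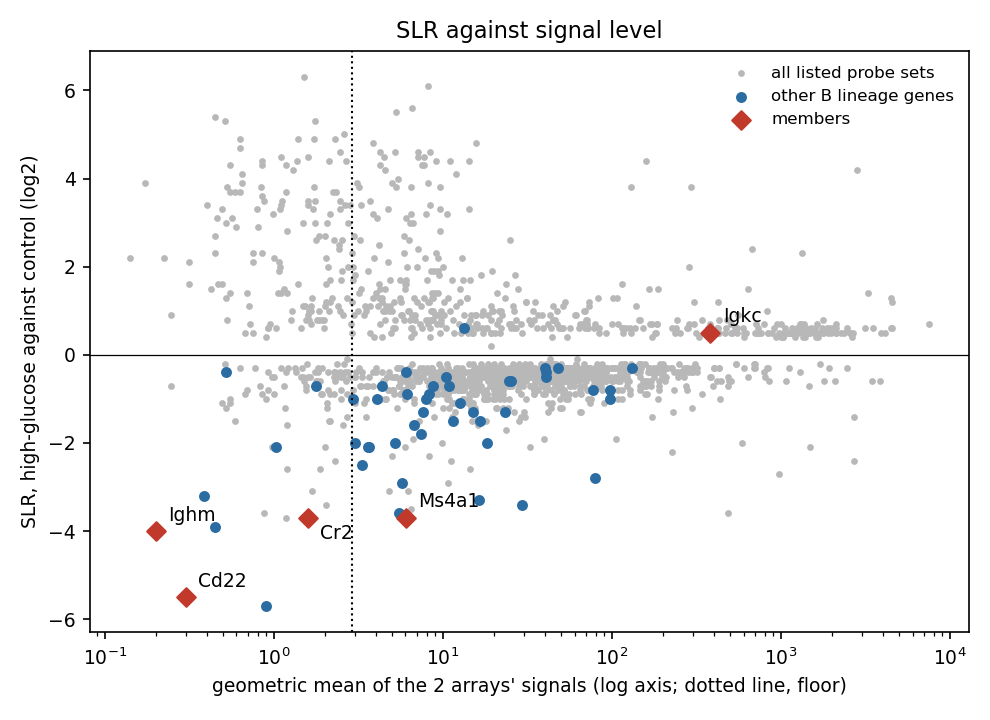
SLR in the authors' deposited table (log2, high-glucose against control) against the geometric mean of the signals on both arrays (log axis), for all 1625 listed probe sets, the other B lineage genes (blue) and the 5 genes (red diamonds). The dotted line is the floor of 2.9; Cd22, Ighm and Cr2 lie left of it, and most SLRs of 3 or more of either sign lie at signals under the array medians.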

How the data were processed

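RNA of 1 sample per diet was extracted with Trizol, and 6 ug of it was labelled as biotinylated cRNA, per the labels' protocols. The intensity values are linear signals that the authors made with MAS5, per the submitters' processing notes. Its version and scaling target are not given there, and detection calls were not used here. The SLR values are log2 ratios from the authors' deposited table comparing the diets, whose title gives the direction. Its column of signed fold changes, which the authors derived from the SLR judging by the values, is of no stated unit and was not used.

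Symbols were updated through RefSeq names of GRCm38.p6 (1314 current, 213 by a synonym, 56 kept, 42 probe sets without one). A gene not in the authors' deposited table is unnamed here, which says nothing of its level. Signals under a floor of 2.9 were set to it, ratios with both signals there were left out, and a ratio with 1 signal there is a bound. Ratios were also centred on the median of expressed probe sets. A gene with several probe sets took the largest absolute SLR. With 1 array per diet there is no test, and the number of arrays limits the precision. The genes and lists were chosen with earlier results of these data known. Named genes were the 5 genes, listed genes of the B lineage lists (1 is not reported here), up to 4 genes of other lists by absolute SLR and the 6 nearest in SLR to the median of the 5, plus, after values were seen, Tcf3 and the remaining follicle genes. Lists of 11 erythroid genes (0 listed), enterocytes and hepatocytes were also counted. The 3 motifs were chosen after values were seen. Alternatives were other fold marks, background levels, floors, filters and scalings (median, 2% trimmed mean, quantile, loess) and other ways to count probe sets. Centring was tested on simulated data. Python 3.11.15, pandas 2.3.3 and statsmodels 0.14.6 were used.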

Additional observations from a re-analysis of the deposited data

How the results depend on the processing

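No paired analysis was possible because there was 1 array per diet, and no replicate could be left out. The count of 4 of the 5 genes past 2-fold lower by SLR stayed at 4 with 1.5-fold, 3-fold and 4-fold marks. It was also 4 without probe sets of suffix x or s, which Igkc alone of the 5 carries. The 4 genes were chosen with their SLRs of -3.7 or lower known, so these alternatives could not change the count. The median SLR of the 5 was -3.85 without that suffix, an alternative added after seeing the data, and -3.7 otherwise. The median of the 20 listed receptor and signalling genes, -1.4, was -1.5 without the suffix and -1.3 without the 5 genes. That of the 28 B cell marker genes, -2.0, was -1.6 without the 5 genes. The number of the 5 above background on both arrays was 1 at the array median and at the 40th and 75th percentiles. It was 3 at the 10th percentile, 2 at the 25th and 2 against the highest trp control probe set, which was also added after seeing the data. Mouse cytokine control probe sets were not found on the array, so that alternative was not run. The log2 ratio of Igkc, 0.23 relative to the shift, was -0.74 as deposited and -0.020 with median centring, 0.27 with the trimmed mean, 0.28 with quantile and 0.22 with loess scaling. That of Ms4a1, 0.80, was -0.17 as deposited, 0.55 with median centring, 0.84 with the trimmed mean, 0.42 with quantile and 0.50 with loess scaling. No value could be had for Ms4a1 with a floor at the 40th percentile. The count of probe sets 1 or more log2 units below the shift, 546, was 2094 without a filter on low signals and 182 with one at the 75th percentile. These filters test 22626 and 5657 probe sets. Low signals limit the values of Cd22, Ighm and Cr2, and no detection calls were used here.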
